A study of Mus musculus with 22 samples.

Results

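Bcl2l11 encodes Bim, a member of the BCL2 family that carries only the BH3 domain and promotes cell death. Bim binds the protective members of the family, such as Bcl-2 and Mcl-1, and activates Bax and Bak, which open the outer mitochondrial membrane and release cytochrome c, after which caspases are activated. In neurons its transcription is known to be raised by FoxO factors and by the JNK pathway when growth factor signaling through PI3K and Akt falls, and its protein is marked for degradation by ERK. Loss of Tsc1 activates mTORC1, the kinase complex that rapamycin inhibits.

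The gene was described here by its row, locus XLOC_031580, which is 1 of 66494 loci in each of a pair of tables that hold 22 libraries. It was chosen by name and with its values known, because the study lists the locus both among the genes that differed between mutant and control in ribosome-bound RNA and among those with a changed ribosome binding relative to total RNA. The values behind those listings are therefore given as a description, without a test. Of all loci, 1985 are paired with a reference transcript and 1832 with a gene symbol in the supplementary files, and genes are named here only where such a pair is given.

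The first table holds total RNA of GFP-positive Purkinje cells (PCs) sorted from C57BL/6 mice, with 5 mutant libraries (Tsc1 fl/fl L7Cre;L7GFP, labels 61, 74, 103, 167 and 191) and 5 control libraries (Tsc1 +/+, labels 45, 48, 144a, 144b and 176). The second holds translating ribosome affinity purification (TRAP), in which RNA is pulled down with the tagged ribosomal protein RPL10A-EGFP, made only after Cre recombination (Rosa26fsTRAP), from mutants (Tsc1 fl/fl L7Cre) and controls (Tsc1 +/+ L7Cre), with 3 libraries for each combination of genotype and rapamycin treatment. Cre and the GFP of the sorted cells are driven by the L7 (Pcp2) promoter, which is active in PCs. By the breeding scheme in the methods the controls of both assays carry L7Cre as well, while the study's results describe the sorted controls without it. The labels give no age, and no dose or schedule of rapamycin. Controls 144a and 144b carry 1 animal number. The labels do not say whether the TRAP libraries with the same number are related.

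The locus is annotated with class code j, which means that its assembled transcript (TCONS_00095056) shares at least 1 splice junction with the reference transcript ENSMUST00000103210 without matching its whole structure. In GENCODE M21 (GRCm38), Bcl2l11 (ENSMUSG00000027381) lies on the plus strand of chromosome 2 from 128126038 to 128162547 and has 8 annotated transcripts, of which 5 are protein coding. Their coding lengths without the stop codon are 588 bases (ENSMUST00000110341), 420 bases (ENSMUST00000103210) and 330 bases (ENSMUST00000019281 and ENSMUST00000103211), the lengths of the isoforms known as BimEL, BimL and BimS, and 273 bases (ENSMUST00000089634). The deposited value is a sum over the locus and does not separate these isoforms. The coding splice junctions were read from the GENCODE transcripts and are given 5′ to 3′, with the last 12 bases of the upstream exon in lower case and the first 12 of the downstream exon in capitals.

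Exon 2 to exon 3 of the reference (128128756 to 128128925, in 2 of the 5 coding transcripts): cagaaccgcaagACAGGAGCCCGG
Exon 3 to exon 4 of the reference (128129014 to 128147085, in 2 of the 5): tcagtgcaatggCTTCCATACGAC
Exon 4 to exon 5 of the reference (128147194 to 128158231, in 4 of the 5): tacacaaggaggGTGTTTGCAAAT
The junction that skips exon 3, as in BimS (128128756 to 128147085, in 2 of the 5, not in the reference): cagaaccgcaagCTTCCATACGAC
The junction found only in ENSMUST00000089634 (128129014 to 128129637, in 1 of the 5): tcagtgcaatggATCAGTTGGAGA

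The sorted libraries held 43.3 to 86.3 M fragments and the TRAP libraries 2.47 to 6.38 M, so that the same share of a library rests on far fewer fragments in TRAP. The 10 highest loci together held from 40.5% to 72.6% of the fragments in TRAP, and mutant library 3 without rapamycin stood apart with the lowest share (40.5%), the most loci above 0 (20951) and the smallest deposited value for 1 fragment (0.303, against 1.51 and 1.96 in the other 2 libraries of its group). The PC markers Pcp2, Calb1 and Car8 were detected in all 12 TRAP libraries with at least 530 fragments each. The deleted gene Tsc1 was not analysed here, and no check of the genotype labels on it was made.

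In ribosome-bound RNA, Bcl2l11 was high in the 3 mutant libraries without rapamycin and low in all others. The deposited values, which are estimated fragments divided by one size factor per library, were 133, 78.3 and 87.4 in mutants 1, 2 and 3. They were 1.70, 1.25 and 0 in controls 1, 2 and 3. With rapamycin, the 3 controls had 0, 23.0 and 9.84, and the 3 mutants had 3.62, 0 and 11.1. Every mutant library without rapamycin lay above the other 9 libraries, and the lowest of them was 3.41 times the highest of the other 9. The other 3 groups overlapped one another. In order of the mean deposited value the groups were mutant (99.7 ± 29.5), control with rapamycin (10.9 ± 11.5), mutant with rapamycin (4.90 ± 5.65) and control (0.986 ± 0.882; SD, n = 3 for each), and the last 3 groups of this order did not differ from their neighbors beyond their spread.

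**Figure D1:**
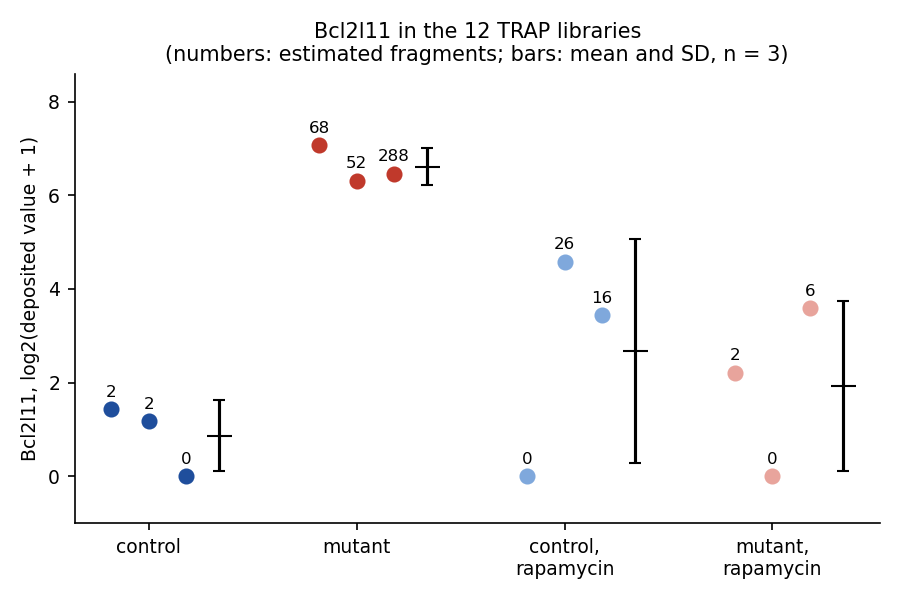
Each point is 1 TRAP library, with the 4 groups along the horizontal axis and log2(deposited value + 1) of Bcl2l11 on the vertical axis; the number at a point is the estimated number of fragments and the bars show the mean and SD (n = 3). The 3 mutant libraries without rapamycin, with 52, 68 and 288 fragments, lie above the other 9, which have at most 26.

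Among the 9174 loci whose log2(value + 1) averaged 2 or more over the 12 TRAP libraries, 154 (1.68%) had their 3 untreated mutant libraries above the other 9. Bcl2l11 was 1 of 3 loci (0.0327%) in which the ratio of the lowest mutant to the highest other library was at least 3.41. The others were AC166344.3 (7.62) and Rtel1 (5.14), both also of class code j. No locus reached this ratio with the control group, or with either rapamycin group, in the high position. The pattern of Bcl2l11 was noticed before these counts were made. Its controls, controls with rapamycin and mutants with rapamycin averaged 0.87, 2.67 and 1.93 on the log2(value + 1) scale, together under the filter. The locus thus passed the filter only through its untreated mutants, and the ratio of 3.41 is its own. These counts therefore only describe the locus.

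The control and rapamycin values rest on very few fragments. The 3 controls held 2, 2 and 0 fragments of Bcl2l11, and 3 fragments, the limit that a count of 0 allows, would be 0.470 per M fragments in control 3. The mutants without rapamycin held 68, 52 and 288 fragments, which is 25.4, 15.2 and 101.5 per M fragments. Mutant 3 is the highest per M fragments and lies between the other 2 in deposited value, because its size factor differs. The controls with rapamycin held 0, 26 and 16 fragments and the mutants with rapamycin 2, 0 and 6. All these counts and their intervals cover counting error only.

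On the log2(value + 1) scale, Bcl2l11 was 6.62 ± 0.40 in mutants and 0.87 ± 0.76 in controls without rapamycin (SD, n = 3 each), a difference of 5.75 (limma standard error 0.48). Of the 9658 loci in this comparison, 5 had a larger increase, and 0.942% were past an unadjusted limma p under 0.01 with a fold change above 2 in this direction. Summed over the group, 408 fragments in mutants against 4 in controls gave a ratio of 104 on the deposited scale (exact 95% counting interval 40.4 to 384) and of 194 per M fragments (75.3 to 716). Without mutant library 3 the ratio was 117 on the deposited scale and 83.7 per M fragments. The locus passed the filter of this comparison only through its mutants. This contrast chose the gene, and no p-value is given for it.

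With rapamycin, in libraries that the study's listings of the gene did not use, the genotypes did not differ beyond the spread of their libraries. These values were also known when the gene was chosen, so the tests below are not free of that choice. Bcl2l11 was 1.93 ± 1.81 in mutants and 2.67 ± 2.39 in controls on the log2(value + 1) scale (SD, n = 3 each). The difference was -0.74, with a 95% interval from -4.17 to 2.69, so that a large change in either direction remained possible at this depth (limma adjusted p = 0.929 across 8728 loci, of which 1.23% were past the thresholds). An exact two-sided permutation test gave p = 0.80, where 0.10 is the smallest that 3 against 3 allows. Without mutant library 2 with rapamycin, in which the locus was listed at 0, the difference was 0.23.

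Within the mutants, the value was lower by 4.68 on the log2(value + 1) scale with rapamycin than without (standard error 0.87), and 2 of 9664 loci had a larger decrease, with 1.27% past the thresholds in this direction. Within the controls, the mean was higher with rapamycin by 1.81 on the same scale, with 42 fragments in 3 libraries against 4. It was 0.85 without control library 2 with rapamycin, which holds 26 of the 42 fragments, and 3.14 without control library 1 with rapamycin, in which the locus was listed at 0. In that comparison 1.05% of 8682 loci were past the thresholds, and the locus lay under the filter on low values. The groups overlapped at 0 in the controls. The genotype difference was thus 6.49 lower on the log2 scale with rapamycin than without (standard error 1.61). No locus of the 9174 had a larger decrease in this interaction, in which 0.251% were past the thresholds in this direction. These 3 comparisons share the untreated libraries that chose the gene and are given as descriptions. Within the mutants and in the interaction, the locus passed the filter only through the untreated mutants.

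**Figure D2:**
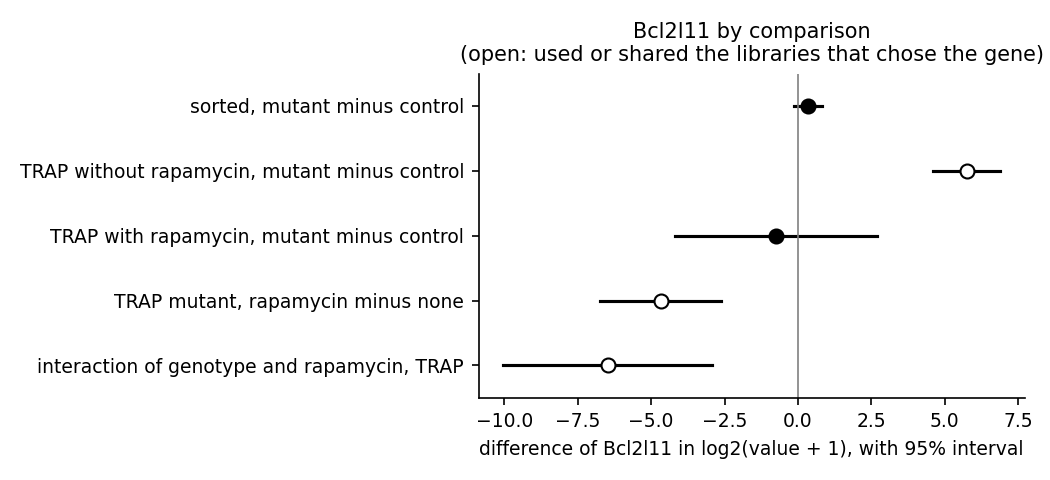
The horizontal axis is the difference of Bcl2l11 in log2(value + 1) with its 95% interval from limma, and each row is a comparison. Filled points are comparisons whose libraries did not enter the study's listing of the gene in TRAP. The sorted difference (0.34) and the TRAP difference under rapamycin (-0.74) have intervals that include 0.

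In total RNA of sorted PCs, Bcl2l11 was well detected in both genotypes, with 624 to 1224 fragments in every library. The deposited values in mutants were 942 in library 61, 940 in library 74, 917 in library 103, 1159 in library 167 and 939 in library 191. In controls they were 779 in library 45, 514 in library 48, 710 in library 144a, 838 in library 144b and 1129 in library 176. Of the 5 mutants, 4 lay within a narrow range and library 167 above it, while the controls spread more widely and control 176 was higher than 4 of the 5 mutants.

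The means were 9.93 ± 0.14 in mutants and 9.59 ± 0.41 in controls on the log2(value + 1) scale (SD, n = 5 each). The difference of 0.34 (95% interval -0.12 to 0.81, a fold change between 0.921 and 1.75) did not pass the threshold (limma adjusted p = 0.515 across 16455 loci, of which 1.47% were past the thresholds). An exact two-sided permutation test gave p = 0.111, with 0.00794 as the smallest possible. Controls 144a and 144b, which carry 1 animal number, were counted separately here; averaged as 1 control they left 4 controls, a difference of 0.34 and an exact permutation p of 0.175. All 5 mutants lay above the control mean and 1 lay above all controls. Without control 176 the difference was 0.48 and did not pass the threshold either. The sorted values enter the ribosome binding measure by which the study also lists the locus.

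The libraries carry 3 submission numbers, and only MS3005 holds both genotypes. Within it, mutants 167 and 191 had 1159 and 939 and controls 144a and 176 had 710 and 1129, a difference of 0.22 on the log2(value + 1) scale that did not pass the threshold. With submission number as a term the difference was also 0.22 and did not pass. The mutants of MS2723 ranged from 917 to 942 and the controls of MS2872 from 514 to 838, and there genotype and submission cannot be told apart. The summed PC markers (11 loci) were 988 to 5379 per M fragments in mutants and 4592 to 8682 in controls. The 3 astroglial markers paired with a locus (Gfap, Apoe and Tnc) summed to 3405 to 5362 in mutants and 1776 to 4237 in controls. The 2 microglial markers (Csf1r and C1qc) summed to 174 to 445 in mutants and 144 to 690 in controls. The sorted libraries thus also held markers of other cell types. The part of any cell type in the Bcl2l11 values was not tested. In such bulk samples, fewer cells of a type and less RNA per cell cannot be told apart.

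**Figure D3:**
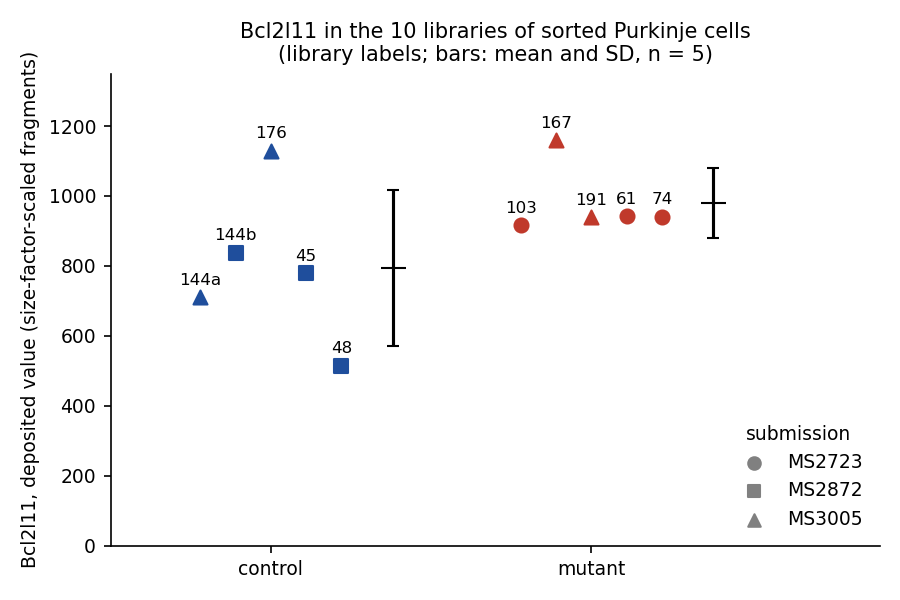
Each point is 1 sorted library, with its label, the deposited value of Bcl2l11 on the vertical axis from 0 and the submission as its shape; the bars show the mean and SD (n = 5). The mutants (917 to 1159) and the controls (514 to 1129) overlap, with control 176 among the highest.

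The difference in ribosome-bound RNA was therefore much larger than the difference in total RNA. The change in ribosome binding relative to RNA, here the TRAP difference minus the sorted difference, was 5.40 on the log2 scale (standard error 0.53). Expressed per M fragments, which sets aside the separate size factors of the tables, Bcl2l11 ranged from 7.83 to 17.7 in sorted controls and from 0 to 0.408 in TRAP controls. It ranged from 14.7 to 17.99 in sorted mutants and from 15.2 to 101.5 in TRAP mutants without rapamycin. On this scale the ranges of both assays were apart in controls, and in mutants they overlapped. Scaling per M fragments does not remove differences in library preparation, which the paper names as a technical confounder between sorted and TRAP data. The assays also differed in other cell types. The 3 astroglial markers summed to 1776 to 4237 per M fragments in sorted controls and 17.1 to 45.0 in TRAP controls. The part of either in these levels was not tested. With the 10 highest loci of each library left out of its total, sorted mutants ranged from 15.8 to 19.4 and TRAP mutants from 47.7 to 170.5, so that they no longer overlapped, while sorted controls ranged from 8.37 to 19.0 and TRAP controls from 0 to 1.08.

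For scale, 1076 other loci had a sorted control mean within 0.25 of that of Bcl2l11 on the log2(value + 1) scale. In the TRAP controls their median was 2.16, and 24.3% of them were lower than Bcl2l11. In the TRAP mutants their median was 2.47, and 99.3% were lower. With rapamycin, 74.0% were lower in controls and 46.3% in mutants. Against loci with like total RNA, Bcl2l11 was thus near the top in untreated mutants. It lay just under the lower quartile (0.906) in untreated controls, where it rests on 4 fragments in all. In controls with rapamycin it lay just under the upper quartile (2.74), and in mutants with rapamycin near the median (2.16).

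**Figure D4:**
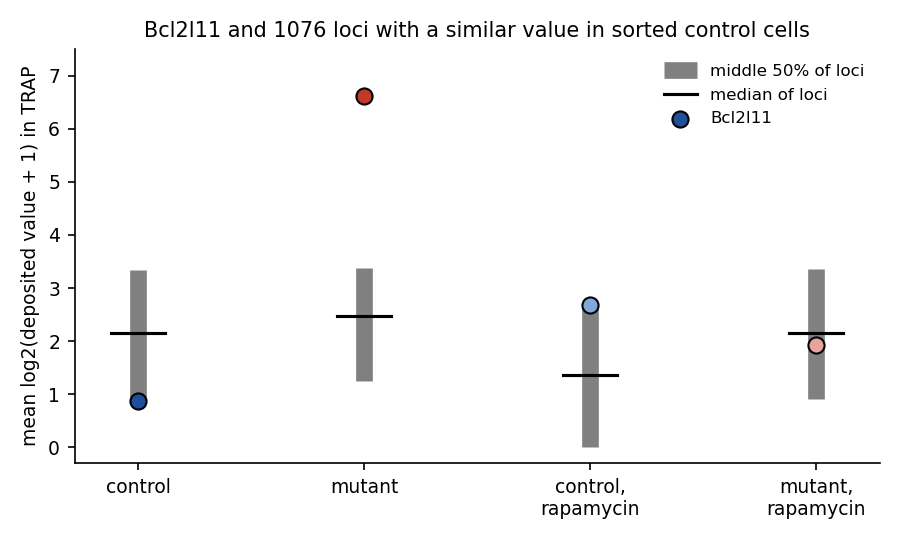
For each TRAP group, the gray bar spans the middle 50% and the line marks the median of 1076 loci with a sorted control value like that of Bcl2l11, and the point is Bcl2l11, all as mean log2(deposited value + 1). The point lies near the lower end of the bar in controls (0.87), far above it in mutants (6.62) and inside it in both rapamycin groups.

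Of the 121 symbols in lists of the BCL2 family, caspases and mitochondrial death factors, death receptors, regulators of Bim and ER stress, 20 were paired with a locus. The protective members Bcl2, Bcl2l1 and Mcl1 and the effectors Bax and Bak1 were not among them and were not analysed here. The supplementary files name loci that the study selected from these libraries, so the genes below are not a random sample of their lists and their directions are not independent evidence.

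The other BH3-only genes were Bid, which links death receptors to mitochondria, Hrk, a neuronal death gene, and Pmaip1 (Noxa), a target of p53. In TRAP without rapamycin Bid was listed at 7.85, 3.01 and 5.77 in mutants 1 to 3, Hrk at 1.96, 6.02 and 5.46 and Pmaip1 at 5.89, 1.51 and 4.25, and all were listed at 0 in the 3 controls. These values rest on 1 to 19 fragments. With rapamycin, Hrk was 0, 8.84 and 5.54 in controls 1 to 3, and Bid and Pmaip1 were at 0 in those controls. In mutants 1 to 3 with rapamycin, Hrk was 3.62, 5.39 and 0, Bid was 0, 0 and 5.54, and Pmaip1 was at 0. None of the 3 genes passed the filter on low values in TRAP. In sorted PCs all were tested and none was past the thresholds, with differences of 0.41 for Bid, -0.09 for Hrk and -1.36 for Pmaip1 on the log2 scale. Casp6, an executioner caspase, and Naip2, of the inhibitor of apoptosis family, were also listed at 0 in the controls and above 0 in all 3 mutants, with 1 to 4 fragments. Across the table, 232 of 23404 loci (0.991%) had this pattern and 22 (0.094%) the reverse. Between the rapamycin groups, 428 of 19699 loci (2.17%) were at 0 in the controls and above 0 in all mutants, and 22 (0.112%) the reverse.

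The members of the caspase list reported here with a TRAP value above the filter were Aifm1, a mitochondrial flavoprotein, and Parp1, a DNA repair enzyme cut by caspases. Their differences without rapamycin were -1.04 and -1.01 on the log2 scale and did not pass the threshold. The death receptor genes were Fas, with a sorted difference of -1.07, and the adaptor Traf1, with a sorted difference of 0.88. Neither was past the thresholds in sorted PCs, and both lay under the filter in TRAP.

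The regulators of Bim paired with a locus were Foxo3, a FoxO factor known to raise Bim transcription, Pdpk1, which activates Akt, Mapk3 (ERK1), Cebpa and Cebpb, the phosphatase subunit Ppp2ca, Bag1, a cochaperone that binds Bcl-2, and Mapk10 (JNK3). The Foxo3 locus only overlaps exons of the gene and the Mapk10 locus lies on the opposite strand, so both assignments are uncertain. Of the 7 tested in sorted PCs, 0 were past the limma thresholds in either direction and 3 had an unadjusted p under 0.05 (against 1.47% and 11.3% of all loci), and the median difference was -0.71 on the log2 scale against 0.03 over all loci. Of the 5 tested in TRAP without rapamycin, 0 were past the thresholds and 0 had an unadjusted p under 0.05 (against 1.96% and 8.11% of all loci), with a median of 0.63 against 0.07. Foxo3 itself was 86.3, 73.8 and 94.97 in mutants and 56.3, 73.4 and 39.0 in controls without rapamycin, a difference of 0.63 (limma adjusted p = 0.697). Cebpb, which lay under the filter, was 11.8, 6.02 and 6.85 in those mutants and at most 0.713 in those controls.

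Hspa5 and Xbp1, both of the ER stress response, were also in the lists. Their differences in TRAP without rapamycin were -0.77 and -0.53 on the log2 scale and did not pass the threshold. The interaction of genotype and rapamycin passed the threshold for Hspa5 (2.12, standard error 0.65, limma adjusted p = 0.457), in which 1.66% of all loci were past the thresholds in this direction. Taking the list members reported here together and leaving out Bcl2l11, 0 of 18 loci were past the limma thresholds in sorted PCs, where 5 had an unadjusted p under 0.05 (11.3% of all loci had). In TRAP, 0 of 9 were past the thresholds between genotypes without rapamycin (2 with an unadjusted p under 0.05, against 8.11% of all loci). Under rapamycin 0 of 9 were past them between genotypes, as were 0 of 9 between controls with and without it, with 0 at an unadjusted p under 0.05 in both (5.50% and 5.30% of all loci). Between mutants with and without rapamycin 0 of 10 were past them, with 1 at an unadjusted p under 0.05, against 1.75% and 8.31% of all loci. In the interaction 1 of 9, Hspa5, was past the thresholds and 2 had an unadjusted p under 0.05 (6.02% of all loci had).

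**Figure D5:**
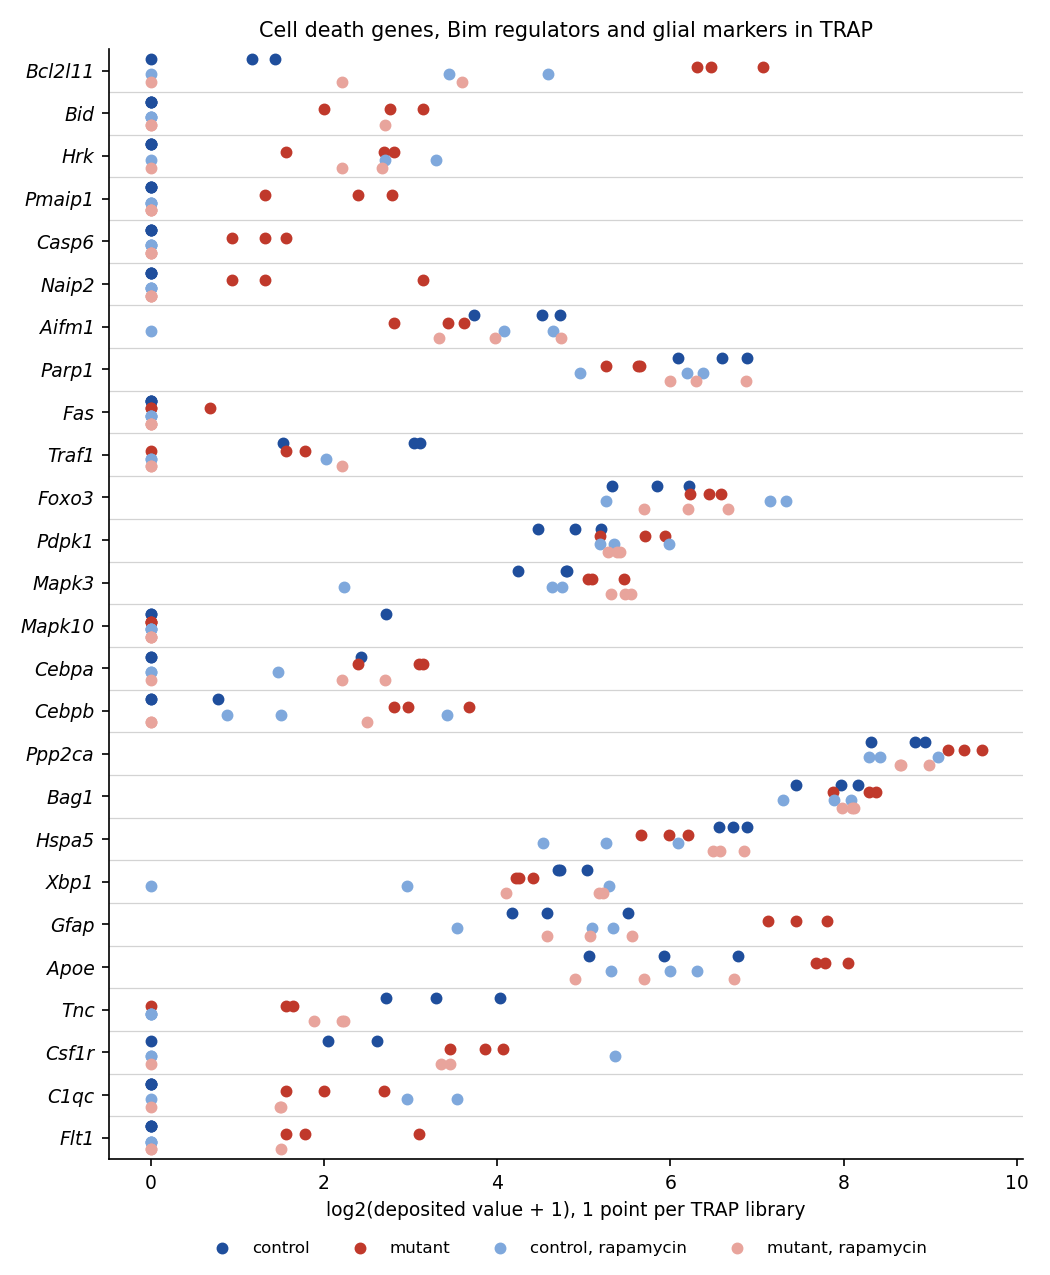
Each row is a gene of the 5 lists or a marker of astroglia, microglia or vascular cells that is paired with a locus, and each point is 1 TRAP library, at log2(deposited value + 1) on the horizontal axis. The red points (mutants without rapamycin) of Bcl2l11 lie apart from all others, and those of Gfap and Apoe also lie to the right of the other groups.

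Some markers of other cell types were also higher in the untreated TRAP mutants, and others were not. The summed deposited value of the 3 astroglial markers paired with a locus (Gfap, Apoe and Tnc, of 9 in the list) was 358 to 488 in mutants without rapamycin, 60.7 to 162 in controls, 49.5 to 117 in controls with rapamycin and 54.3 to 155 in mutants with rapamycin. Gfap was higher by 2.71 (limma adjusted p = 0.188) and Apoe by 1.92 (limma adjusted p = 0.392) on the log2 scale in mutants without rapamycin. Tnc was lower by 2.27 (limma adjusted p = 0.392). All 3 were past the thresholds, as were 1.96% of all loci in this comparison. These 3 of the 9 listed markers have a name here because the study selected their loci, so they are not a random sample. The 2 microglial markers, Csf1r and C1qc, summed to 15.4 to 17.7 in these mutants and to 5.11 or less in controls, with C1qc at 0 in all 3 controls. They reached 46.8 in the controls with rapamycin and 11.1 in the mutants with rapamycin. The vascular marker Flt1 was at 0 in all controls with and without rapamycin and at 1.96 to 7.53 in mutants without rapamycin. The latter values rest on 1 to 8 fragments. In mutants with rapamycin Flt1 was 0 to 1.85. Without rapamycin, 0.991% of 23404 loci were at 0 in the controls and above 0 in all mutants, as C1qc and Flt1 were. The 11 PC markers summed to 9281 to 9822 in these mutants and to 10184 to 11868 in the controls. The interneuron marker Tfap2b overlapped between the groups, with 5.37 to 9.10 in mutants without rapamycin and 0 to 9.41 in controls. With rapamycin it was 0 to 17.8 in controls and 1.35 to 7.38 in mutants. No marker of granule cells or oligodendrocytes was analysed here. The part of other cell types in the Bcl2l11 values was not tested.

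The named loci whose pattern over the 12 TRAP libraries was most like that of Bcl2l11 were Rab31 (Pearson r = 0.90), Rala (0.87), Clta (0.86), Ywhaz (0.85) and Arrb1 (0.84), of 939 named loci above the filter. They were also the 5 highest among all 9173 other loci. Rab31 and Rala encode small GTPases, Clta a clathrin light chain, Ywhaz a 14-3-3 protein and Arrb1 an arrestin. Arrb1 was 165 to 274 in mutants without rapamycin and 52.9 to 123 in the other 3 groups. Clta was 124 to 139 in those mutants and 59.3 to 107 elsewhere, and Ywhaz 298 to 361 against 186 to 277. The closest, Rab31 and Rala, overlapped with the controls with rapamycin. Rab31 was 46.4 to 63.3 in mutants without rapamycin and up to 61.9 in those controls, and Rala 49.5 to 72.3 and up to 57.8. The correlations rest on 12 libraries in which the 3 untreated mutants are apart.

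In the 10 sorted libraries the most alike named loci were Plcb2 (0.93), Tbc1d23 (0.90), Kcnj3 (0.86), Atrn (0.83) and Slc5a6 (0.83), of 1374 named loci. Plcb2 encodes a phospholipase C, Tbc1d23 a trafficking protein, and Slc5a6 a vitamin transporter. The Kcnj3 and Atrn loci lie on the strand opposite to those genes, and their assignment is uncertain. Above the fifth of them, 73 of 16454 loci correlated more closely with Bcl2l11. No gene was among the 5 in both assays.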

How the data were processed

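Reads of 10 sorted and 12 TRAP libraries of mouse PCs were trimmed with Trimmomatic 0.39, mapped with STAR 2.7.0f to GRCm38 and quantified with Cufflinks 2.2.1, according to the methods and the submitters' processing notes. The authors deposited a signal per locus in a table for each assay, in which estimated fragments were scaled by the size factor of the library. Fragments were estimated here by dividing by the commonest low value of the library; 61.8% to 95.1% of values came out whole within 0.01 fragments, so no count model was the main test. Values were used as log2(value + 1), loci averaging under 5 (sorted) or 2 (TRAP) were left out, and groups were compared with limma 3.58.1 in R 4.3.3; past the thresholds means a fold change above 2 with an unadjusted p under 0.01, with Benjamini-Hochberg adjustment over all loci tested. A pseudocount of 1 understates the change of low values. Single values were compared with exact permutation tests in scipy 1.17.1. The fits were tested on simulated data. Gene names came from the supplementary files, and sequences from GENCODE M21. Of the genes, all list members with a locus, apart from 1 that is not reported here and is left out of the counts of list members, and the 5 most alike in each assay were named; AC166344.3 and Rtel1 were named after their values were seen. Marker lists for 7 cell types were read as sums. The gene, lists and tests were chosen with earlier results of these data known. The alternatives were other scalings, pseudocounts, filters and models, submission, a block for the TRAP replicate number and each library left out. P-values measure the spread between these libraries, which the labels do not trace to separate animals in TRAP.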

Additional observations from a re-analysis of the deposited data

Results flagged for a closer look

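In the sorted mutants, library 167 stood apart from the other 4 for Bcl2l11, with a log2 value of 10.18 against 9.84 to 9.88. The same kind of gap was found in 5 other genes named here. Aifm1 was 11.31 in mutant 191 against 11.003 to 11.08, Hrk was 7.85 in mutant 74 against 8.37 to 8.58, and Naip2 was 4.18 in mutant 61 against 6.47 to 6.99. Among the controls, Rab31 was 13.75 in library 45 against 14.51 to 14.79, and the antisense locus at Mapk10 was 3.36 in library 144b and 0 in the others. These are 6 of 60 groups examined, where chance alone marks about 1 in 20.

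The genotype difference in TRAP changed with rapamycin by -6.49 for Bcl2l11 and by 2.12 for Hspa5, on the log2 scale. For Bcl2l11 this is a description, since the untreated libraries chose the gene. For Hspa5 the unadjusted limma p of the interaction was under 0.01 with a fold change above 2, and the adjusted limma p was 0.457.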

How the results depend on the processing

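Of 126 values of Bcl2l11 under an alternative, 117 kept their direction and their side of the threshold or stayed within the replicate spread, 8 moved further and 1 reversed. The filters, a variance trend, the replicate block and a fit of all 4 TRAP groups leave the difference itself unchanged, so these alternatives could not move it. The sorted difference of 0.34 lies well under the fold threshold, so its side of the threshold was hardly open to change. The count of 117 is therefore not a measure of robustness. The TRAP difference without rapamycin was 3.29 with a pseudocount of 10, 7.28 with 0.1 and 6.59 in limma-voom on estimated fragments. The fall with rapamycin in mutants was -2.92 with a pseudocount of 10. The interaction was -3.69 with a pseudocount of 10 and -8.10 with 0.1, and the ribosome binding change was 2.95 and 6.94. The TRAP difference with rapamycin reversed to 0.23 without mutant library 2; leaving out 1 library at a time, it ranged from -2.08 to 0.23, and the cause was not tested beyond the listed 0 of that library. The TRAP difference with rapamycin was not fitted with the stricter filter or without control library 2 with rapamycin, where the locus fell under the filter. Without that control library, the remaining controls were 0 and 3.44 on the log2(value + 1) scale and averaged under the mutants (1.93). The sign is thus reversed there as well, which the 126 values do not count. The rapamycin difference in controls had no value in limma-voom. With each library left out in turn, the range was 5.31 to 6.03 for TRAP without rapamycin and 0.20 to 0.48 in sorted PCs.

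With a replicate block for the TRAP number, the difference with rapamycin was -0.74 and did not pass the threshold, and the count of loci past the thresholds was 64 against 107 there and 100 against 169 for rapamycin in mutants. Same-numbered libraries did not deviate together (correlations from -0.0760 to 0.0479). No large effect shared by number was thus seen, but whether such libraries are related cannot be told from these correlations.

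The counts behind the background shares depend on the settings. Over all alternatives, the 242 loci in sorted PCs became 33 (submission as a term) to 702 (no filter), the 189 in TRAP without rapamycin 52 to 441, the 107 with rapamycin 32 to 535, the 91 for rapamycin in controls 24 to 509, the 169 for rapamycin in mutants 44 to 410 and the 175 of the interaction 31 to 529.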
